A study of Mus musculus with 11 samples.

Results

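The genes described here encode the proteins of the cytosolic ribosome. They were chosen by symbol alone (Rpl or Rps followed by digits and optional lower-case letters, plus Rplp0, Rplp1, Rplp2 and Rpsa, without pseudogene symbols ending in -ps), which gave 84 of the 24411 gene symbols in the tables. Of these, 51 name proteins of the large subunit and 33 proteins of the small subunit. By background knowledge, 76 are the standard ribosomal proteins and 8 are paralogs or retrogene copies (Rpl3l, Rpl10l, Rpl36al, Rpl37rt, Rpl39l, Rps4l, Rps27l and Rps27rt). The rule itself uses no expression value, but it was chosen with earlier results of these data known.

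RNA was sequenced from 11 libraries of myeloid cells sorted from mouse brain and labelled microglia-like, in a study of competitive transplantation of blood-forming cells. 9 libraries form a complete layout of 3 delivery routes (IV, into a vein; ICV, into the cerebral ventricles; ITL, into the lumbar spinal canal) by 3 sorted populations: TAµ, whose libraries all carry the genotype CD45.1, and µ of genotype CD45.1 or CD45.2. The other 2 are a CD45.2 library labelled ICV PBS and a library labelled CTR µ. CTR µ is the control, has no delivery route and is set apart from the 9 post-transplant libraries of the layout. Each combination is 1 library, so the replicates of a route are its 3 populations and the replicates of a population its 3 routes. The names TAµ and PBS are not spelled out in the labels, which also give neither the age, the number of animals behind a library nor which genotype was the donor on each route. The CTR µ library carries no genotype label.

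A ribosome joins a large and a small subunit, each built of ribosomal RNA and one copy or a few copies of each ribosomal protein. Their messenger RNAs are among the most abundant in any growing cell and carry a pyrimidine tract at the very start, the terminal oligopyrimidine (TOP) motif, through which mTOR signalling and La-related proteins set their translation. Free ribosomal proteins of the large subunit can bind Mdm2 and so stabilise p53. In bulk RNA, fewer cells of a type and less RNA per cell cannot be told apart.

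The start windows are printed to show the pyrimidine tract by which this family is known, where the annotation has one, and to include Rps27 and its retrogene copy Rps27rt, which had few or no reads. RefSeq start windows of 30 bases, 15 on either side of the annotated start and read on the coding strand of GRCm38.p6, are given for 5 members with a tract and for 3 that were almost or wholly without reads. Capitals mark a run of C and T that begins with C at the annotated first base and is at least 5 bases long.
Rpl15: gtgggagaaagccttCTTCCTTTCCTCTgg
Rpl35: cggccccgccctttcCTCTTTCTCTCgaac
Rps18: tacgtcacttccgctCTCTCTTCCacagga
Rps15a: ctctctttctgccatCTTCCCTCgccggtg
Rplp2: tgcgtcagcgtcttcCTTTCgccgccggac
Rps27: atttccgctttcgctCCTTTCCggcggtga
Rps27rt: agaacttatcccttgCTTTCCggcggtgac
Rpl26: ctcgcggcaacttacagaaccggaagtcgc

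These windows lie at chr14:18270972-18271001 (Rpl15, minus strand), chr2:39005117-39005146 (Rpl35, minus), chr17:33955651-33955680 (Rps18, minus), chr7:118116133-118116162 (Rps15a, minus), chr7:141447636-141447665 (Rplp2, plus), chr3:90213634-90213663 (Rps27, minus), chr9:114982725-114982754 (Rps27rt, minus) and chr11:68901551-68901580 (Rpl26, plus). A tract of this kind was found at a RefSeq start of 14 of the 63 members that have one in the table, or 22.2%, against 484 of 17224 genes, or 2.81%. The longest, in Rpl15, had 13 bases and that of Rpl35 had 11. RefSeq starts can sit a few bases away from the start a cell uses, so a window without capitals says no more than that these letters do not begin there.

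Most standard members were well read, and 4 were nearly missing. Levels are CPM, a gene's count scaled to the library's total. Rpl26, a large-subunit protein known for binding p53 messenger RNA, was listed at 0 in all 11 libraries. Rpl30 had 37 reads in 2 libraries, a mean of 0.271 CPM. Rps27 averaged 0.943 CPM and Rpl34 averaged 1.52 CPM. The other 72 standard members had means from 34.3 CPM (Rpl27) to 537.2 CPM (Rplp1). A count of 0 allows up to 0.141 CPM in the deepest library and up to 0.493 CPM in the shallowest (3 counts of the total).

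Ribosomal proteins have many processed gene copies, and the amount of shared sequence was computed for the members with an annotated principal transcript (82 of 84, GENCODE M21, GRCm38). The median member shared 54.5% of its 50-base windows with the transcript of another annotated gene, and the range ran from 0 to 98.6%. Rps27 had the highest value, 98.6%, with 9 other genes holding one of its windows. Rps27rt, the retrogene copy of Rps27, shared 91.1% and was listed at 0 everywhere. Rpl26 shared 71.3%, Rpl34 shared 50.6% and Rpl30 shared 47.8%, which are within the range of far more abundant members: Rpl10 shared 92.1% and averaged 535.0 CPM. How reads that map to several places were counted is not given in the sources used here, and its part in these low counts was not tested. Levels of all members that share much sequence are uncertain to that extent.

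**Figure D1:**
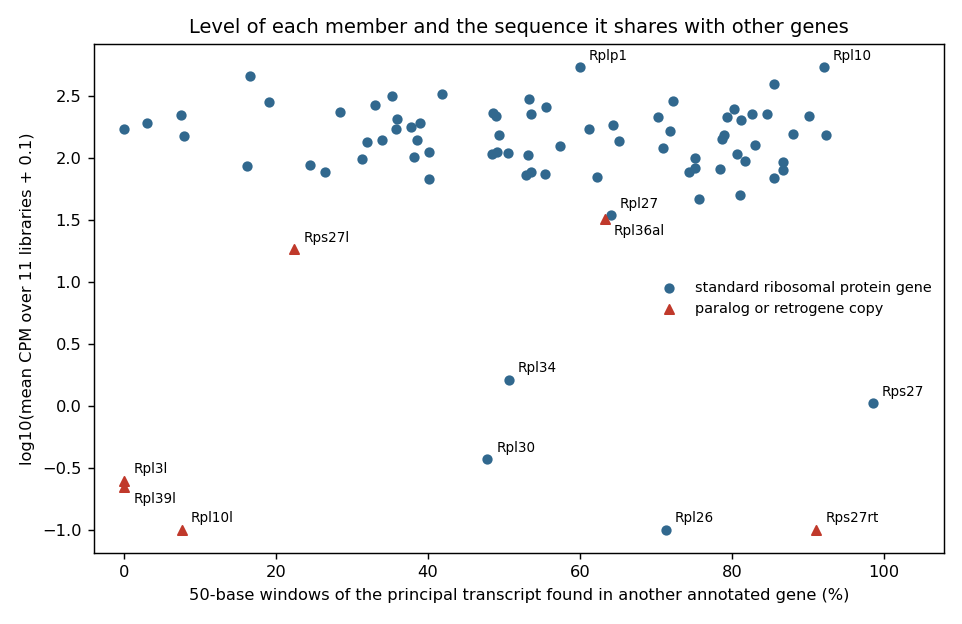
Each point is 1 of 82 members. The x axis gives the percentage of 50-base windows of its principal transcript that also occur in another annotated gene and the y axis gives log10 of the mean CPM over 11 libraries plus 0.1. Rpl26, Rpl30, Rps27 and Rpl34 lie far below the other standard members, while Rpl10, at 92.1% shared, lies among the highest.

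Per kilobase of coding sequence, the highest members were Rplp1 of the stalk at 1570.6 CPM, Rpl41, the smallest ribosomal protein, at 1400.4, Rps29 at 1005.0, Rpl10 at 833.3, Rps24 at 702.2 and Rps20 at 618.8. The 4 most abundant members in plain CPM (Rplp1, Rpl10, Rpl4 and Rpl3) held 15.6% of the family's counts, and the 10 most abundant held 29.8%.

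As a share of all counts, ribosomal protein genes were highest in the CD45.1 libraries of the ITL route and lowest in the CD45.2 library of that route. The IV libraries had 1.17% (CD45.1 µ), 1.05% (TAµ) and 1.30% (CD45.2 µ). The ICV libraries had 1.09%, 1.31% and 1.20% in the same order. The ITL libraries had 1.57%, 1.76% and 0.979%. The PBS library had 1.18% and the CTR µ library 0.987%. In the shallowest library, ITL CD45.2 µ, the 95% Wilson interval ran from 0.971% to 0.987%, and such intervals cover counting error only. The highest share was 1.80 times the lowest, and both of those libraries were from ITL.

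Averaged over routes the share was 1.37% ± 0.357 in TAµ, 1.28% ± 0.260 in CD45.1 µ and 1.16% ± 0.166 in CD45.2 µ (SD, n = 3 libraries each). Averaged over populations it was 1.44% ± 0.407 for ITL, 1.20% ± 0.111 for ICV and 1.17% ± 0.127 for IV (SD, n = 3). The values of every pair of groups overlapped in both orders. Within CD45.1 µ, ITL was 1.35 times IV and 1.44 times ICV. Within TAµ, the same ratios were 1.67 and 1.34. Within CD45.2 µ they ran the other way, at 0.750 and 0.815.

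**Figure D2:**
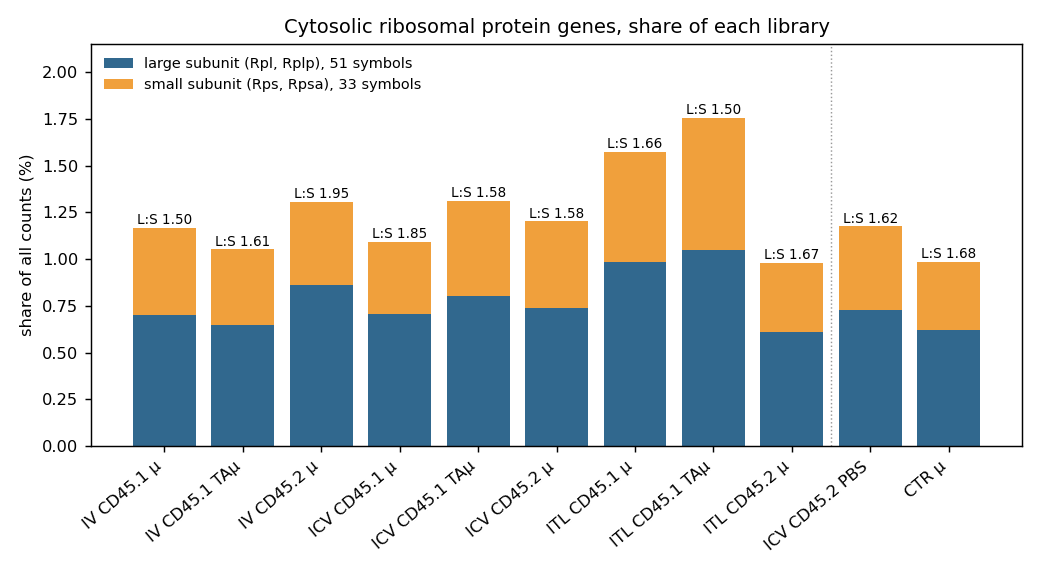
Bars give the percentage of each library's counts that fell on large-subunit (blue) and small-subunit (orange) ribosomal protein genes, 1 library per bar. The number above each bar is the ratio of large-subunit to small-subunit counts. ITL TAµ (1.76%) and ITL CD45.1 µ (1.57%) stand highest, and the ratio is highest in IV CD45.2 µ (1.95), followed by ICV CD45.1 µ (1.85).

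The same order was seen gene by gene. Of the 74 members with a mean of at least 10 CPM, 49 were highest in ITL TAµ and 13 in ITL CD45.1 µ, and all 74 stood above their own 11-library median in ITL TAµ. ITL CD45.2 µ held the lowest level of 23 members, ICV CD45.1 µ of 16 and CTR µ of 16. The members were counted in the same libraries, so these counts describe 11 libraries and not 74 separate observations. No matching count was made over all genes, so whether these counts are particular to the family is not known. ITL TAµ had 23.5% of its counts on Rn45s, the ribosomal RNA precursor, against 6.98% to 25.1% over all libraries. Its total was 9513898 counts, and that of ITL CD45.2 µ was the lowest of the 11, at 6090589. With Rn45s taken out of the totals ITL TAµ was highest, at 2.30%, and IV TAµ was lowest, at 1.15%. The part of depth or of Rn45s in the order was not tested.

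**Figure D3:**
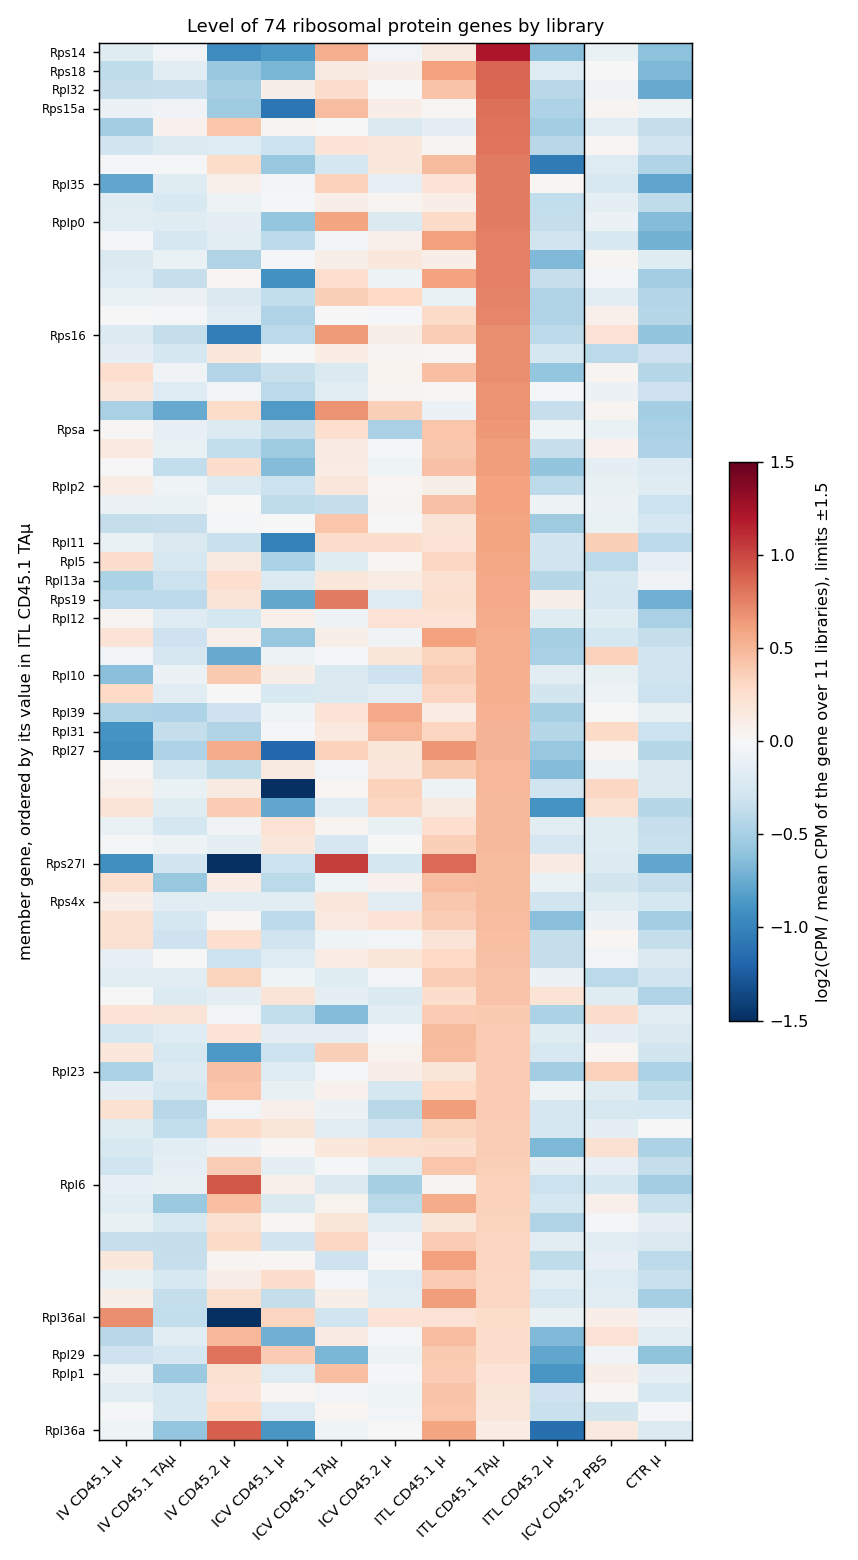
Rows are the 74 members with a mean of at least 10 CPM, ordered by their value in ITL TAµ, with genes that the text describes named at the side, and columns are the 11 libraries. Colour is log2 of CPM over the gene's mean CPM over 11 libraries, red for above and blue for below. The ITL TAµ column is red throughout, while the IV CD45.2 µ column holds both dark red (Rpl6, Rpl36a, Rpl29) and dark blue cells (Rpl36al, Rps27l, Rps16).

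The contrasts between populations and between routes were fitted over the 9 libraries with edgeR's quasi-likelihood test, with route and population as additive terms. A log2 fold change of 1 is a doubling. Of the 84 members, 78 passed the filter on low counts; Rpl26, Rpl30, Rpl3l, Rpl10l, Rpl39l and Rps27rt did not. None of the 78 passed an adjusted p of 0.05 in any of the 6 contrasts. Over all 13339 genes tested the share called was 0.0750% for TAµ against CD45.1 µ, 0.0300% for µ of CD45.2 against µ of CD45.1, 0.345% for TAµ against CD45.2 µ, 0% for ICV against IV, 0.217% for ITL against IV and 0% for ITL against ICV, so the members' 0 is close to the background in all 6. At an unadjusted p of 0.05 edgeR counted 4, 0, 6, 5, 6 and 0 members in that order, all of them higher in the group named first. Of all genes, 3.23%, 4.94%, 3.07%, 5.17%, 2.26% and 1.63% were under that p and higher in the group named first, with lower genes not counted. DESeq2 and limma-voom called 0 members in each contrast too. At that unadjusted p, in either direction, they counted 3, 0, 6, 5, 5 and 0 members (DESeq2) and 3, 1, 5, 4, 9 and 0 members (limma-voom).

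Across the members that passed the filter the fitted differences leaned to higher values in TAµ and in ITL. For TAµ against CD45.1 µ the median member stood at 0.27 (log2), beside 0.06 for all genes tested, and 68 of 78 members were above 0, beside 54.0% of all genes. Against CD45.2 µ, TAµ had a median of 0.27 beside 0.10, with 72 of 78 above 0, beside 56.9%. ITL against IV gave a median of 0.37 beside 0.05, with 4 of 78 below 0, beside 47.0%. ITL against ICV gave 0.19 beside -0.02, with 65 above 0, beside 48.4%. ICV against IV gave 0.15 beside 0.06, with 58 above 0, beside 53.9%. The contrast of both µ populations, CD45.2 over CD45.1, gave -0.02 beside -0.01, with 34 above 0, beside 49.6%. The contrasts of one factor share libraries and are not separate evidence.

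Few of these members kept one direction in every block, counted on TMM-scaled log2 CPM. For TAµ against CD45.1 µ, 12 of 78 members were higher on all 3 routes, beside 20.2% of all genes. Against CD45.2 µ it was 14, beside 16.7%. ITL was above IV in all 3 populations for 15 members, beside 20.3%, and above ICV for 2, beside 14.5%. ICV was above IV in all 3 for 14, beside 12.6%, and µ of CD45.2 above µ of CD45.1 on all routes for 0, beside 13.1%. These shares are near the background or under it. The next counts and ratios are on CPM of the library total, without TMM, for the 79 members with enough counts over 11 libraries. The block that broke the pattern was IV for the TAµ contrasts and CD45.2 µ for the ITL contrasts. In IV, 51 of 79 members were lower in TAµ than in CD45.2 µ, while 60.4% of all genes were higher. Within CD45.2 µ, 59 of 79 were lower in ITL than in IV, while 53.5% of all genes were higher. In the ITL block 77 of 79 members stood above CD45.2 µ in TAµ, beside 42.9% of all genes, at a median log2 ratio of 0.86. There 76 of 79 were also lower in µ of CD45.2 than of CD45.1, at a median of -0.65, while 51.5% of all genes were higher. Whether the difference depends on the route was not tested, as every combination is a single library. Leaving out ITL CD45.2 µ moved the median of TAµ against CD45.2 µ from 0.27 to -0.03, and leaving out ITL TAµ moved that of TAµ against CD45.1 µ from 0.27 to 0.05.

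The extremes of the fitted differences were mostly members with few reads. Rps27 was the lowest in 5 contrasts, from -2.39 to -0.33 with an SE of 1.89 to 3.05, and lowest but one in TAµ against CD45.2 µ. Rpl37rt and Rps4l, both under 15 CPM in every library, led or nearly led several contrasts, with an SE from 0.84 (Rpl37rt, ICV against IV) to 1.36 (Rps4l, µ of CD45.2 against CD45.1). Of members with more reads, Rpl6, a large-subunit protein, was lowest but one in ICV against IV (-0.38 ± 0.31) and in ITL against IV (-0.19 ± 0.31), Rps26, of the messenger RNA exit, was at -0.36 ± 0.28 in ICV against IV, and Rpl14 was at -0.25 ± 0.28 in TAµ against CD45.1 µ, lower on 3 of 3 routes. Rps7, needed for processing of small-subunit RNA, was 0.51 ± 0.34 in ITL against ICV and Rps21 was 0.64 ± 0.39 in µ of CD45.2 against CD45.1. None of these passed.

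**Figure D4:**
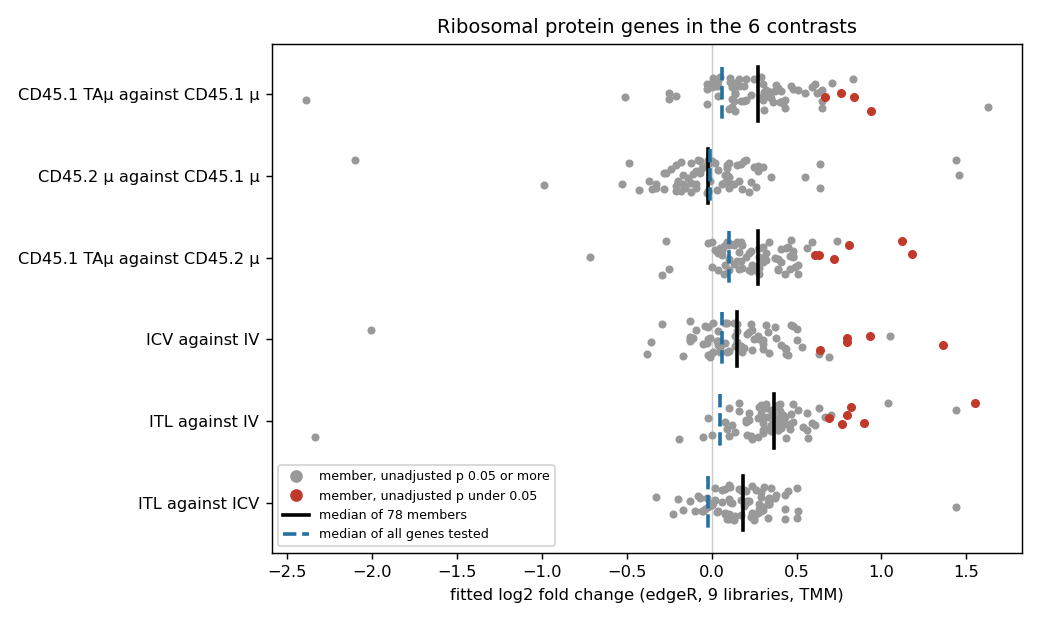
Each point is the fitted log2 fold change of 1 of 78 members in 1 contrast, red where the unadjusted p was under 0.05. The black line is the median of the members and the dashed blue line the median of all 13339 genes. The red points lie to the right of 0, and none passed after adjustment. The grey points near -2 are Rps27, whose reads were close to 0.

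Rps14, a small-subunit protein near the exit of messenger RNA, had the smallest p among members. In the order CD45.1 µ, TAµ, CD45.2 µ, which is kept below, it stood at 89.4, 98.6 and 52.8 CPM in IV, at 56.0, 148.4 and 98.2 in ICV and at 111.6, 234.3 and 65.5 in ITL, with 94.4 in PBS and 66.4 in CTR µ. TAµ was the highest of the 3 populations on each route, yet the IV value of TAµ was below the ITL value of CD45.1 µ. The fitted log2 difference was 1.12 ± 0.36 (SE) against CD45.2 µ (edgeR unadjusted p = 0.0061, adjusted p = 0.341) and 0.94 ± 0.36 against CD45.1 µ (unadjusted p = 0.0171, adjusted p = 0.874).

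Further small-subunit members had unadjusted p-values under 0.05. Rps16 stood at 97.0, 87.7 and 54.6 CPM in IV, 84.5, 174.0 and 118.8 in ICV, and 145.0, 181.3 and 85.5 in ITL. Its fitted log2 difference between TAµ and CD45.2 µ was 0.81 ± 0.32 (edgeR adjusted p = 0.589), and that between ITL and IV was 0.80 ± 0.33 (adjusted p = 0.816). Rps18, whose start window is printed above, stood at 60.9, 70.9 and 53.5 CPM in IV, 49.3, 87.0 and 84.8 in ICV, and 120.8, 145.6 and 69.3 in ITL. ITL was above IV in each population, by 0.90 ± 0.34 in the fit (adjusted p = 0.749), although the ITL CD45.2 µ value lay below the IV TAµ value. Rps19, mutated in Diamond-Blackfan anaemia, was at 0.76 ± 0.36 in TAµ over CD45.1 µ, and Rps15a at 0.84 ± 0.36 (both adjusted p = 0.874), each higher on all 3 routes in CPM but on 2 of 3 after TMM scaling. Of the 18 genes known from that anaemia 17 were tested and 0 passed, with a median of 0.30 in TAµ over CD45.1 µ and 0.39 in ITL over IV. Rpsa, the laminin receptor, was at 0.61 ± 0.26 in TAµ over CD45.2 µ, higher on 3 of 3 routes (adjusted p = 0.651).

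Among large-subunit members the route contrasts were led by Rpl31 and Rpl32. Rpl31 stood at 44.6, 64.3 and 60.3 CPM in IV, 81.0, 91.2 and 116.3 in ICV, and 102.9, 116.8 and 60.9 in ITL. All 3 ICV values lay above all 3 IV values, and the fitted log2 difference was 0.93 ± 0.32 (edgeR unadjusted p = 0.00997, adjusted p = 0.429). Rpl32 stood at 182.7, 184.6 and 165.0 in IV, 247.5, 281.1 and 233.3 in ICV, and 313.3, 423.2 and 175.4 in ITL. Its ICV values also lay above its IV values, with a fitted difference of 0.64 ± 0.26 (adjusted p = 0.491), and ITL was 0.77 ± 0.27 above IV (adjusted p = 0.657). Rpl35, which has the longest printed tract after Rpl15, was 0.69 ± 0.31 higher in ITL than in IV (adjusted p = 0.901), in 2 of 3 populations.

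The stalk, which recruits elongation factors to the ribosome, is made of Rplp0, Rplp1 and Rplp2 on the base that Rpl12 helps to form. Rplp0 stood at 289.8, 284.6 and 293.2 CPM in IV, 216.0, 489.5 and 278.3 in ICV, and 395.9, 549.6 and 251.7 in ITL, with 303.8 in PBS and 206.8 in CTR µ. In IV the 3 populations were close together, while TAµ was well above both others in ICV and ITL. The fitted log2 difference was 0.72 ± 0.29 against CD45.2 µ (edgeR adjusted p = 0.589) and 0.67 ± 0.29 against CD45.1 µ (adjusted p = 0.874). Rplp1 ranged from 293.6 (ITL CD45.2 µ) to 732.7 CPM (ICV TAµ), Rplp2 from 104.6 to 208.1 and Rpl12 from 153.4 to 317.1. Summed, the 4 genes ran from 839.7 CPM in ITL CD45.2 µ to 1696.3 CPM in ITL TAµ. None of the 4 passed in any contrast, and their medians were 0.27 for TAµ against CD45.1 µ and 0.40 against CD45.2 µ.

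Rpl5 and Rpl11, which together with the 5S ribosomal RNA bind Mdm2, and Rpl23, which also binds it, gave no call either. Rpl5 ranged from 164.4 (ICV CD45.1 µ) to 340.7 CPM (ITL TAµ), Rpl11 from 34.7 (ICV CD45.1 µ) to 106.0 (ITL TAµ) and Rpl23 from 96.4 (ITL CD45.2 µ) to 187.1 (IV CD45.2 µ). The largest of their fitted differences was 0.55 ± 0.37 for Rpl11 in TAµ against CD45.1 µ (edgeR adjusted p = 0.874). Of 12 p53 target genes, 1 fell and 0 rose in TAµ against CD45.2 µ, with a median of -1.56 beside 0.10 for all genes. The one that fell was Cdkn1a, the cell cycle inhibitor p21, at -2.27 ± 0.38 (adjusted p = 0.00818), lower on 3 of 3 routes. It stood at 83.4, 87.5 and 405.8 CPM in IV, 165.2, 31.9 and 118.2 in ICV, and 158.7, 46.0 and 361.2 in ITL. Its adjusted p was 0.166 without IV CD45.2 µ, 0.166 without IV TAµ, 0.102 without ITL TAµ and 0.0501 by limma-voom.

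4 standard members lie on the X chromosome (Rpl10, Rpl36a, Rpl39 and Rps4x). Rps4x was the steadiest member relative to the rest of the family, with a range from 230.5 to 393.2 CPM. Rpl39 stood at 61.9, 61.5 and 68.2 CPM in IV, 81.1, 98.1 and 125.4 in ICV, and 91.9, 121.4 and 59.9 in ITL, so all ICV values lay above all IV values. Its fitted log2 difference was 0.80 ± 0.32 (edgeR adjusted p = 0.491). Rpl36a was the opposite in evenness, from 31.2 CPM in ITL CD45.2 µ to 127.3 CPM in IV CD45.2 µ. Rpl10 ran from 347.7 CPM in IV CD45.1 µ to 776.5 CPM in ITL TAµ. None of the 4 passed in any contrast.

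Paralogs and copies departed from the family most. Rps27l, a copy of Rps27 that is known as a p53 target, stood at 9.68, 15 and 4.25 CPM in IV, 14.6, 37.6 and 15.3 in ICV, and 32.9, 25.5 and 19.9 in ITL, with 15.9 in PBS and 10.7 in CTR µ. All ITL values lay above all IV values, and TAµ was above CD45.2 µ on each route. The fitted log2 differences were 1.55 ± 0.56 for ITL against IV (edgeR adjusted p = 0.697), 1.36 ± 0.54 for ICV against IV (adjusted p = 0.480) and 1.18 ± 0.54 for TAµ against CD45.2 µ (adjusted p = 0.709). The last of these had the opposite sign to Cdkn1a.

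Rpl36al, a copy of Rpl36a that lacks introns, ranged from 24.7 to 51.8 CPM in 10 libraries and stood at 2.86 CPM in IV CD45.2 µ. Rpl36a had its highest level in that same library, as given above, and both share much sequence with other genes (63.3% of the windows of Rpl36al and 85.5% of those of Rpl36a). Rpl37rt ran from 0.808 CPM (ICV CD45.1 µ) to 12.9 CPM (ICV CD45.2 µ) and Rps4l from 0, in IV CD45.1 µ and ICV CD45.1 µ, to 6.58 CPM in CTR µ. Rpl3l, the striated muscle form of Rpl3, had 25 reads in 3 libraries, and Rpl39l, known from testis, had 15 reads in 6. Rpl10l, another testis copy, was listed at 0 throughout.

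Relative to the rest of the family, most members kept their place. After the median of members was taken off each library on the log2 scale, the SD of a member over the 11 libraries had a median of 0.22, and 49 of 74 members had an SD under 0.3. The lowest was 0.10, for Rps4x. The highest were 1.08 for Rpl36al, 0.79 for Rps27l, 0.48 for Rpl27, 0.47 for Rpl36a and 0.45 for Rps14 and Rpl29. Rpl27 ran from 15.2 CPM (ICV CD45.1 µ) to 54.2 CPM (ITL CD45.1 µ), and Rpl29 from 46.8 CPM (ITL CD45.2 µ) to 141.0 CPM (IV CD45.2 µ).

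2 libraries stood apart in the makeup of the family. In IV CD45.2 µ the root mean square departure of the members from their usual place was 0.57 (log2), beside 0.15 to 0.36 in the other libraries. There Rpl36a, Rpl6, Rpl29 and Rpl27 were relatively high and Rpl36al, Rps27l and Rps16 relatively low. The ratio of large-subunit to small-subunit counts was 1.95 in IV CD45.2 µ, 1.85 in the ICV library of CD45.1 µ, and no higher than 1.68 in the other 9 libraries. These 2 libraries also had the fewest genes detected, 10477 and 11456, against 12192 to 15492 in the others, and IV CD45.2 µ had the most RNA from astrocyte, endothelial and erythroid marker genes. The part of these in the ratio was not tested. Without the 2 libraries the median member was -0.51 in µ of CD45.2 against CD45.1 and 0.69 in ICV against IV, and still no member passed.

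Marker lists measured which cell types the sorted libraries held. The 12 microglia genes summed to between 13260.5 CPM (PBS) and 34842.4 CPM (CTR µ) and were the most abundant list in each library. In TAµ over CD45.2 µ, 2 of these 12 fell and 0 rose, with 6 above and 6 below 0 and a median of -0.10, beside 0.10 for all genes. Sall1, a transcription factor of resident microglia, fell by 6.27 ± 0.49 on the log2 scale in TAµ over CD45.2 µ (edgeR adjusted p = 3.60e-06), with 2.23, 6.44 and 7.99 CPM in the 3 TAµ libraries. The other was P2ry12, a purinergic receptor of microglia, at -1.44 ± 0.29 (adjusted p = 0.0427), which missed the threshold in 5 alternative fits (0.124 to 0.358) and without any 1 of 7 libraries (0.0586 to 0.915, the last without IV TAµ). The neutrophil list ran from 1.39 CPM (IV CD45.2 µ) to 12889.5 CPM (IV CD45.1 µ), the oligodendrocyte list from 102.0 to 1244.2 CPM (ICV TAµ), the astrocyte list from 50.4 to 698.7 CPM (IV CD45.2 µ), the endothelial and mural list from 26.8 to 363.6 CPM (IV CD45.2 µ), the neuron list from 0.176 to 21.8, the lymphocyte list from 0 to 18.0 and the erythroid list from 0 to 15.6. In TAµ over CD45.2 µ, Mpo of the neutrophil list rose (edgeR adjusted p = 0.00871), while 7 of the 9 neutrophil genes tested were below 0. Slc1a3 of the astrocyte list fell (adjusted p = 0.0473), with 8 of 8 below 0. Mpo missed the threshold in 2 of 11 alternative fits and without any 1 of 3 libraries. Slc1a3 missed it in 5 of 12 alternative fits and without any 1 of 7 libraries. Over all libraries none of the 8 marker lists was highest in ITL TAµ or ITL CD45.1 µ, the libraries with the highest ribosomal protein shares. Among the 9 libraries of the layout, the microglia list was highest in ITL CD45.1 µ, at 25434.4 CPM, with 17240.4 CPM in ITL TAµ. Its median for ITL against IV was 0.51, beside 0.05 for all genes, with 12 of 12 genes above 0 and 0 called. In all 3 populations 8 of the 12 were higher in ITL, beside 20.3% of all genes. The part of these cell types in the ribosomal protein levels was not tested.

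Ribosomal proteins that the symbol rule leaves out were also high in ITL TAµ. Fau, made as a fusion with a ubiquitin-like protein, Rps3a1 and Rack1 (listed under its older symbol Gnb2l1) were each highest in that library, at 324.4, 345.5 and 591.0 CPM. Fau ranged down to 185.8 CPM (CTR µ), Rps3a1 to 207.5 (PBS) and Gnb2l1 to 221.8 (ICV CD45.1 µ). None of the 3 passed in any contrast, and neither did the paralogs Rpl22l1 and Rpl7l1.

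Genes that build ribosomes were not highest in the libraries where the ribosomal proteins were. Of 38 ribosome biogenesis factors, 0 passed in any contrast, and the median for ITL against IV was -0.27, beside 0.05 for all genes and 0.37 for the ribosomal proteins. The smallest p belonged to Nmd3, which escorts the large subunit out of the nucleus, at -1.21 ± 0.31 (edgeR adjusted p = 0.220), and to Gnl3, the nucleolar GTPase nucleostemin, at -1.30 ± 0.35 (adjusted p = 0.256), both in ITL against IV. Their list summed to 2419.6 CPM in IV CD45.2 µ and 1407.2 CPM in ITL TAµ. The 11 RNA polymerase I genes were also highest in IV CD45.2 µ (458.1 CPM) and lowest in ICV TAµ (232.3 CPM), with 0 called and a median of -0.35 for TAµ against CD45.1 µ. Polr1a, its largest subunit, was -1.14 ± 0.36 in TAµ against CD45.2 µ (adjusted p = 0.331).

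Translation factors and regulators of TOP messenger RNAs gave no call either. The 37 initiation and elongation factors had medians from -0.06 to 0.14 over the 6 contrasts. Eif3f, a subunit of an initiation factor, was 0.85 ± 0.30 higher in ITL than in ICV, and Eif4a2, a helicase, was -0.63 ± 0.22 in ITL against IV (edgeR adjusted p = 0.998 and 0.677). Eef1a1, itself a TOP gene, was also highest in ITL TAµ, and ran from 2359.2 CPM in CTR µ to 4634.9 CPM there. Tpt1, another, ran from 493.2 CPM in ITL CD45.2 µ to 835.0 CPM in ITL TAµ. In ICV, Eef1a1 was highest in CD45.1 µ (3004.7, 2690.6 and 2541.5 CPM), where the ribosomal protein share was lowest. Eef2 and Eif4b of the same list were highest in IV CD45.2 µ, at 1486.7 and 314.0 CPM. Among 15 tested regulators of TOP translation, Rptor, a scaffold of the mTOR complex, was -0.64 ± 0.23 in TAµ against CD45.1 µ and Tsc1, an inhibitor of mTOR, was -0.98 ± 0.35 in ITL against IV (adjusted p = 0.874 and 0.689). The 77 mitochondrial ribosomal proteins, encoded by other genes, had 0 calls and medians of 0.44 for ITL against IV and -0.01 for TAµ against CD45.1 µ. ITL exceeded IV in all 3 populations for 29 of them, beside 20.3% of all genes. None of 22 cell cycle genes passed.

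One feature of the ribosomal protein genes did pass the test: a small nucleolar RNA (snoRNA) that lies in an intron. SnoRNAs guide chemical modification of ribosomal RNA and many are cut from introns of ribosomal protein genes. Of 19 tested, 1 rose in TAµ against CD45.1 µ and 1 in ITL against IV, and it was Snord32a, from an intron of Rpl13a, both times. Snord32a stood at 9.09, 33.2 and 15.9 CPM in IV, 8.71, 241.3 and 68.5 in ICV, and 36.4, 212.3 and 175.4 in ITL, with 126.0 in PBS and 644.0 in CTR µ. TAµ was above CD45.1 µ on each route, and ITL above IV in each population. The fitted log2 fold changes were 3.22 ± 0.47 (edgeR adjusted p = 0.00826) and 2.89 ± 0.46 (adjusted p = 0.00941). Its host Rpl13a stood at 89.8, 99.8 and 148.6 CPM in IV, 108.3, 139.5 and 134.3 in ICV, and 146.0, 184.8 and 92.9 in ITL, a fitted 0.42 ± 0.31 and 0.40 ± 0.31 (adjusted p = 0.877 and 0.922).

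As a list, with Snord32a among the 19 tested, the intronic snoRNAs had medians of 3.22 for TAµ against CD45.1 µ, 2.25 for µ of CD45.2 against CD45.1, 1.89 for ICV against IV and 2.04 for ITL against IV. For 15 of 19 TAµ exceeded CD45.1 µ on all 3 routes, beside 20.2% of all genes. Snord83b was 2.97 ± 0.58 and Snord100 was 3.37 ± 0.67 (edgeR adjusted p = 0.0725 for both). The list was lowest in ICV CD45.1 µ, at 20.3 CPM, and highest in CTR µ, at 1514.2 CPM. All snoRNAs of the tables had their extremes in the same libraries, at 449.1 and 6360.1 CPM. The order of the other libraries differed in part. The list stood at 130.3 CPM in IV TAµ and 233.1 CPM in ICV CD45.2 µ, while all snoRNAs stood at 1563.1 and 1147.5 CPM. SnoRNAs carry no poly(A) tail and the libraries are labelled poly(A) RNA. How much unadenylated RNA each library let through was not tested. Snord32a missed the threshold in TAµ against CD45.1 µ without IV TAµ (adjusted p = 0.214), ITL CD45.1 µ (0.290) or ICV CD45.1 µ (0.298), and in ITL against IV it did so without any 1 of 5 libraries, with values from 0.0507 (ITL TAµ) to 0.402 (IV TAµ). It also missed the threshold in both contrasts with a filter of 10 CPM in 3 libraries (0.0799 and 0.0512), without the block (0.331 and 0.435) and with the older quasi-likelihood fit (0.131 and 0.0979), and in the first without IV CD45.2 µ plus ICV CD45.1 µ (0.0661).

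The CTR µ library was set against the 9 libraries of the layout as 1 library, without a test. Of the 79 members with enough counts over 11 libraries, 78 were below the mean of the 9, beside 64.6% of all genes, and the median log2 difference was -0.39, beside -0.22. Below the lowest of the 9 lay 18 of 79 members, beside 6.31% of all genes, and above the highest lay 1, beside 5.63%. None was more than 2-fold below, beside 17.8%. Rpl35 stood at 39.0 CPM against 71.7 ± 20.8 (SD, n = 9), Rpl32 at 138.7 against 245.1 ± 84.1, Rplp0 at 206.8 against 338.7 ± 114.1 and Rpl6 at 127.0 against 191.9 ± 65.3. Each was lower than all 9. Rps27l at 10.7 CPM and Rps19 at 46.5 CPM were also among the lowest relative to the 9, by -0.83 and -0.80 on the log2 scale, but inside their range. The 1 above the range was Rps4l, at 6.58 CPM with 86 reads, against 2.10 ± 1.52. Scaling by TMM over 11 libraries left 3 members below the range and taking out Rn45s left 6, so the count rests on the scaling. The median stayed below 0 under both, at -0.26 and -0.34.

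The PBS library was compared with ICV CD45.2 µ, the library of the same route and genotype, again 1 against 1 with no replicate check. Members were slightly lower in PBS: 47 of 79 were below, beside 38.6% of all genes, and the median log2 ratio was -0.06, beside 0.11. That median was -0.19 with TMM scaling and -0.20 without Rn45s. None was more than 2-fold lower, beside 7.58%, and 1 was more than 2-fold higher, beside 7.73%, on log2(CPM + 0.5). Rpl39 had the lowest ratio, 0.676 (95% exact interval 0.635 to 0.719, counting error only), followed by Rpl37rt at 0.714, Rpl35a at 0.727, Rps25 at 0.736 and Rpl5 at 0.743. The highest were Rpl34 at 4.11 (87 reads against 23), Rps27 at 2.17 (38 against 19) and, with more reads, Rpl15 at 1.39 (1.30 to 1.49), Rps26 at 1.35 and Rpsa at 1.31. Rpl3l had a ratio of 2.82 on 13 against 5 reads, with an interval from 0.944 to 10.1.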

How the data were processed

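RNA of sorted brain myeloid cells was measured in 11 libraries. The files deposited by the authors hold raw counts for 24411 gene symbols, in 1 table per library. Per the submitters' processing notes reads were aligned with STAR to mm39 (GRCm39); its version, the annotation, the strand setting and the treatment of multi-mapping reads are not stated there. 0 columns were left unassigned. Totals ran from 6090589 to 21282823 counts, so 3 counts were worth 0.141 to 0.493 CPM. No 2 libraries were copies of each other (lowest chi-square per degree of freedom 40.7 over 55 pairs).

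Levels are CPM of the library total. Contrasts used edgeR 4.0.16 in R 4.3.3 on 9 libraries: its filter (minimum count 10, total 15), TMM, route and population as additive terms, the quasi-likelihood F test with Benjamini-Hochberg adjustment over 13339 genes at 0.05, and 4 residual degrees of freedom. The newer form of the quasi-likelihood fit was used (legacy = FALSE); SE is the fold change over the root of F. The biological coefficient of variation was 0.842. The p-values measure the spread between these libraries, which share no replicate within a combination. DESeq2 1.42.0, limma 3.58.1 (voom), other scalings and filters, and each library left out were alternatives. The fit was tested on simulated data. CTR µ and PBS stayed out of the fit and got no test.

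Members and gene lists were chosen with earlier results of these data known. Genes named are those past the test, the highest and lowest by level, by fitted change and by relative SD, all of the small lists, and the smallest p of the others. Rps18, Rps16, Rps19, Rps15a, Rpl31, Rpl32, Rpl35, Rpsa, Snord83b, Snord100, Eef1a1, Eef2, Eif4b, Tpt1 and Rpl13a were also named after their values were seen. Relative SD used members with a mean of at least 10 CPM. Start windows are from RefSeq on GRCm38.p6, another build than that of the files, whose coordinates are not used. Some genes are not reported here by name.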

Additional observations from a re-analysis of the deposited data

Results flagged for a closer look

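Between ITL and IV, the ribosomal protein share moved in opposite directions in the 2 genotypes: it was higher in ITL in both CD45.1 libraries (1.57% against 1.17% in CD45.1 µ, 1.76% against 1.05% in TAµ) and lower in CD45.2 µ (0.979% against 1.30%). The mean log2 ratio of the CD45.1 libraries exceeded that of CD45.2 µ by 1.00. Between ITL and ICV the same held (1.57% against 1.09%, 1.76% against 1.31%, and 0.979% against 1.20%), with a gap of 0.77. The difference was not tested, since each combination is 1 library. The 2 comparisons share the ITL libraries.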

How the results depend on the processing

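No member passed in any of the 126 combinations of a contrast and an alternative setting; the smallest adjusted p was 0.0606. Medians of the members kept their sign under 12 settings other than leaving out 1 library, except without the pair IV CD45.2 µ plus ICV CD45.1 µ, the 2 libraries with the fewest genes: TAµ against CD45.1 µ became -0.0007 and ITL against ICV -0.10, while µ of CD45.2 against CD45.1 moved to -0.51 and ICV against IV to 0.69. The cause was not tested. With 1 library left out the median ran from 0.05 to 0.47 for TAµ against CD45.1 µ, -0.23 to 0.27 for µ of CD45.2 against CD45.1, -0.03 to 0.52 for TAµ against CD45.2 µ, -0.05 to 0.36 for ICV against IV, 0.16 to 0.64 for ITL against IV and -0.03 to 0.45 for ITL against ICV. The sign changed without IV CD45.1 µ or without either ITL µ library in the second of these, without ITL CD45.2 µ in the third, without IV TAµ in the fourth and without ICV CD45.1 µ or ITL TAµ in the last. Scaling by the library total alone shifted the median of all genes by -0.12 in TAµ against CD45.1 µ and in ICV against IV, and the members' medians to 0.14 and 0.02. Counts of all genes called differed by more than 1.5 times: 10 became 217 by DESeq2 for TAµ against CD45.1 µ, 4 became 278 for µ of CD45.2 against CD45.1, 46 became 195 for TAµ against CD45.2 µ, 0 became 147 for ICV against IV, 29 became 149 for ITL against IV and 0 became 28 for ITL against ICV. They were lower or 0 elsewhere: without the block or with 10 CPM in 3 libraries 2, 0, 29 or 25, 0, 13 or 12 and 0 in the same order, and without IV TAµ 0, 1, 5, 0, 0 and 0. Against the 9 libraries, 18 members of CTR µ lay below the range, 3 after TMM scaling and 6 without Rn45s. Mitochondrially encoded genes were sought only as symbols beginning with mt-. No counts fell on such symbols, so leaving those out changed nothing. The order of the shares kept ITL TAµ highest under all 6 alternatives. The alternatives without the 4 most abundant members and with the older quasi-likelihood fit were chosen after seeing the data. No paired analysis was possible because the labels give no replicate or animal number; route and population entered the fit as blocks in its place. Depth limits the lowest members: Rpl39l had 15 reads over 6 libraries and Rpl3l 25 over 3.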
